A study of Xenopus tropicalis with 15 samples.

Results

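The genes described here are the members of the fibroblast growth factor (FGF) system in mid-gastrula embryos of the frog Xenopus tropicalis, namely the FGF ligands, their receptors and the genes that FGF signalling switches on or that restrain it. They were chosen by symbol from the table of raw counts: every gene whose symbol starts with fgf and a number, fgfr, spry, spred, dusp or etv and a number, or is il17rd or egr1. This gave 65 of the 28206 genes in the table. The rule reads symbols only and no measured value, although earlier results of these data were known when the system was picked. Of the 65, 43 had enough reads to be tested and 22 did not.

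FGFs are secreted proteins that bind heparan sulphate and receptor tyrosine kinases at the cell surface. The activated receptors signal through Ras and the MAP kinase cascade to Erk, which switches on target genes, among them the Pea3 group of etv transcription factors and egr1. Some targets, such as the sprouty and spred proteins, dusp6 and il17rd, act back on the cascade and dampen it. In the Xenopus gastrula FGF signalling is known for maintaining mesoderm around the blastopore, where fgf genes and brachyury (t) sustain one another, and for the formation of trunk and tail.

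The study set out to find genes whose transcript level differs along the dorsoventral axis. Poly(A) RNA was sequenced from whole wild-type embryos of an out-bred Nigerian strain, 10 embryos pooled per library, at stage 11 to 11.5, with 5 libraries in each of 3 conditions. The untreated embryos received neither agent. The UV-treated embryos were irradiated for 2 min within 30 min of fertilisation, which produces embryos lacking dorsal structures. The LiCl-treated embryos were placed in 0.3 M LiCl at the 32-cell stage, which produces embryos made up largely of dorsal and anterior structures. Both are early treatments of whole embryos, and the study describes both as changing how stable maternal β-catenin, a Wnt mediator, is. It describes neither as aimed at the FGF pathway. Only clutches with a high penetrance of the phenotype were sequenced, and the 5 libraries of a condition came from separate experiments.

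Total counts ranged from 8412818 to 18455126 per library, with a median of 15102806, and the 65 genes together took between 0.384% and 0.612% of them. Levels are given as CPM, the reads of a gene scaled to a library size of 1e6 after TMM normalisation. The markers chosen to check the embryos were present in every library. The summed level of the 4 organiser markers (chrd, gsc, nog, fst) ran from 326 to 488 CPM in untreated, from 19.0 to 162 CPM in UV-treated and from 827 to 1137 CPM in LiCl-treated libraries. That of the 4 ventral markers (ventx1.1, ventx1.2, bmp4, wnt8a) ran from 1396 to 1820, from 1851 to 3168 and from 422 to 1043 CPM, respectively. Markers of mesoderm (t), endoderm (sox17a) and ectoderm (tfap2a) were all found. Between LiCl- and UV-treated embryos, t was lower by 1.13 and tfap2a by 2.58 on the log2 scale and sox17a higher by 0.66.

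Of the 43 genes tested, 3 passed the study's threshold (at least a 2-fold change, with a false discovery rate, FDR, no higher than 1%) between LiCl- and UV-treated embryos. The ligand fgf16 and the decoy receptor fgfrl1 were higher, and the Erk phosphatase dusp6 was lower, in LiCl-treated embryos. None of the 43 passed it between LiCl-treated and untreated embryos, nor between UV-treated and untreated embryos. The study applied this threshold to DESeq2 results, whereas these counts come from edgeR. With DESeq2, etv2 passed as well, in LiCl-treated embryos against each of the other conditions. The principal ligand fgf8, the receptors fgfr1 and fgfr2, spry1, spry2, etv1 and il17rd did not pass in any comparison.

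These counts were read against those of all 14041 genes tested with edgeR's quasi-likelihood test. Between LiCl- and UV-treated embryos 6.1% of all genes passed (3.55% higher and 2.55% lower in LiCl-treated embryos), against 3 of 43 members. At an unadjusted p under 0.05 there were 14 members and 3877 of all genes. DESeq2 called 4 members there (dusp6, etv2, fgf16 and fgfrl1) and 1331 of all genes. Between LiCl-treated and untreated embryos 3.67% of all genes passed (2.25% higher, 1.42% lower), against 0 of 43. At an unadjusted p under 0.05 there were 10 members and 3810 of all genes, and DESeq2 called 1 member (etv2) and 966 of all genes. Between UV-treated and untreated embryos 0.0712% of all genes passed, against 0 of 43. At an unadjusted p under 0.05 there were 7 members and 1620 of all genes, and DESeq2 called no member and 122 of all genes. At the study's threshold the members' shares were therefore near or below what genes at large gave. By the unadjusted p the members' share was below that of all genes for LiCl-treated against untreated embryos. For UV-treated against untreated embryos and for LiCl- against UV-treated embryos it was above that of all genes. The members were not tested as a set.

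At an FDR of at most 5%, whatever the fold, 5 members differed between LiCl-treated and untreated embryos, where 13.5% of all genes did. These were dusp16 and etv2, which were higher in LiCl-treated embryos, and dusp6, dusp12 and fgfr4, which were lower. Between LiCl- and UV-treated embryos 6 members did, where 15.2% of all genes did, with dusp16, etv2 and fgfr3 added to the 3 above. Between UV-treated and untreated embryos 0.584% of all genes and none of the members did. The median log2 fold change of the 43 genes was 0.21 for LiCl-treated against untreated embryos, -0.03 for UV-treated against untreated and 0.17 for LiCl- against UV-treated, where the medians over all genes were 0.01, -0.02 and 0.03.

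**Figure D1:**
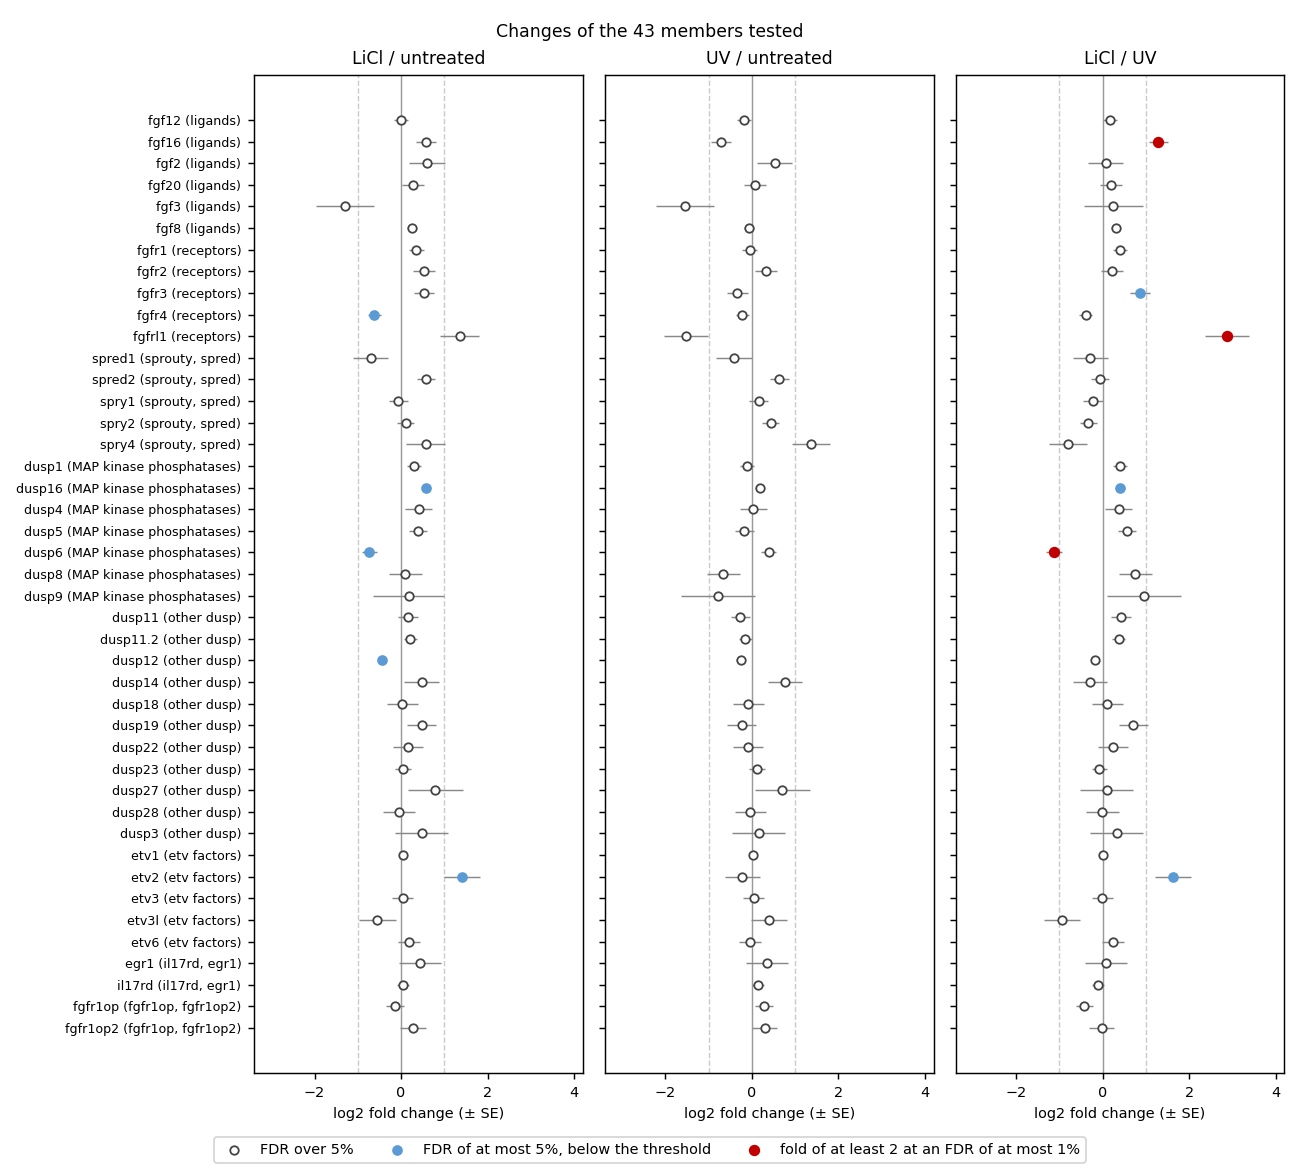
Log2 fold change (point) and its standard error (bar) for each of the 43 genes tested, in the 3 comparisons. Filled red points mark genes past the study's threshold (edgeR), filled blue points an FDR of at most 5% only, and dashed lines a 2-fold change. The red points are dusp6, fgf16 and fgfrl1, all for LiCl- against UV-treated embryos.

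Of the ligands, counted here by symbol as every gene named fgf with a number, 20 were in the table and 6 were tested. The count by symbol is not a count of secreted ligands, since it includes genes whose proteins are not secreted, such as fgf12. fgf8, which in Xenopus is made around the blastopore and acts in mesoderm and neural development, was by far the most abundant. Per kilobase of exon, the scale on which genes can be compared, it stood at 103 CPM in untreated embryos against 20.9 for fgf20, the next ligand. The remaining 4 ligands tested (fgf12, fgf2, fgf16 and fgf3) were between 1.81 and 4.501 CPM per kilobase in untreated embryos.

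**Figure D2:**
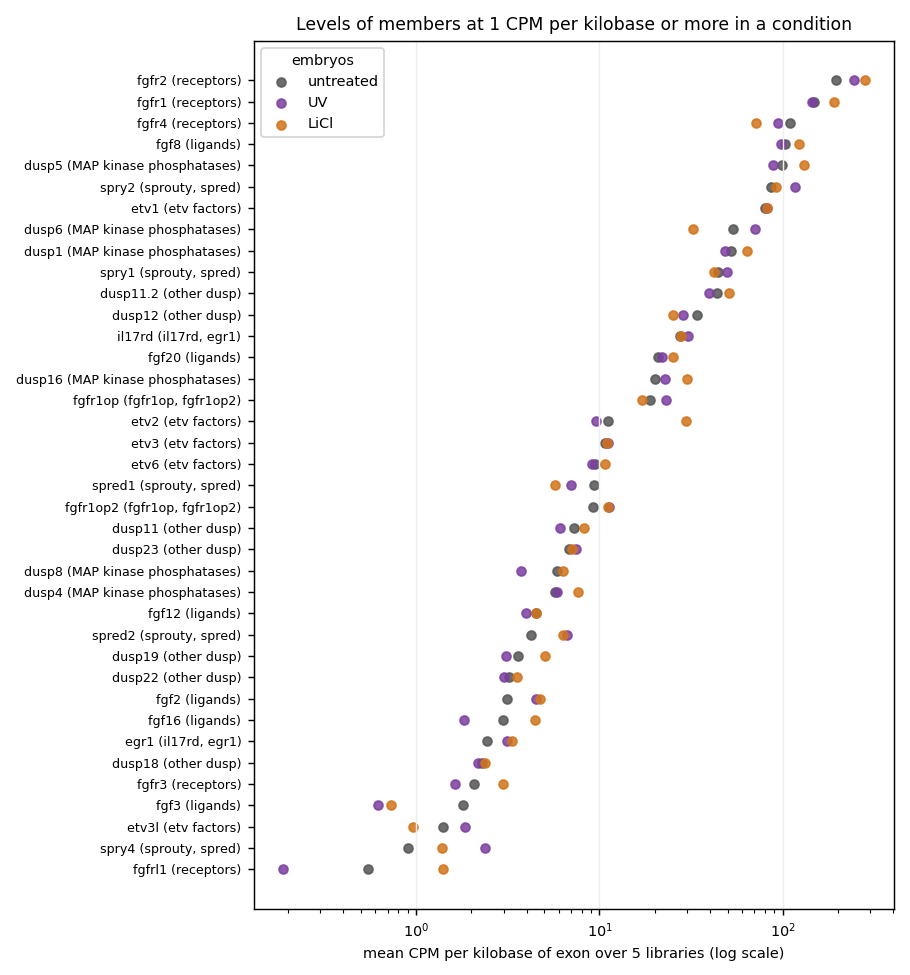
Mean level over 5 libraries in CPM per kilobase of exon, on a log axis, for each gene tested that reached 1 in at least 1 condition. Genes are ordered by their level in untreated embryos. Grey points stand for untreated, purple for UV-treated and orange for LiCl-treated embryos. The receptors fgfr2, fgfr1 and fgfr4 and the ligand fgf8 lead, with levels over 100 in untreated embryos.

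In replicates 1 to 5, fgf8 stood at 191, 205, 187, 210 and 214 CPM in untreated embryos, at 209, 213, 213, 148 and 178 CPM in UV-treated embryos and at 258, 222, 218, 212 and 285 CPM in LiCl-treated embryos. The conditions overlapped. fgf8 had a log2 fold change of 0.25 ± 0.12 (SE; edgeR adjusted p = 0.182) for LiCl-treated against untreated embryos, with a 95% interval of 0.00 to 0.49, and -0.07 for UV-treated against untreated, with an interval of -0.31 to 0.18. A 2-fold change of fgf8 in either treatment thus lay outside these intervals.

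fgf16 belongs with fgf9 and fgf20 to 1 subfamily of secreted FGFs. It was found at 2.46, 3.26, 2.53, 3.94 and 3.92 CPM in untreated replicates 1 to 5, at 2.06, 2.40, 1.93, 1.63 and 1.82 CPM in UV-treated embryos and at 5.19, 5.27, 3.33, 5.80 and 4.59 CPM in LiCl-treated embryos. Every UV-treated library was below every untreated library, and every LiCl-treated library was above every UV-treated one, while LiCl-treated replicate 3 fell among the untreated libraries. Between LiCl- and UV-treated embryos fgf16 rose by a log2 fold change of 1.29 ± 0.23 (SE), with a 95% interval of 0.80 to 1.78 (edgeR adjusted p = 0.00126). Against untreated embryos it was 0.58 higher with LiCl (edgeR adjusted p = 0.101) and 0.71 lower with UV (log2 fold change -0.71, edgeR adjusted p = 0.211), and neither passed. In bulk RNA from whole embryos, fewer cells that make a transcript and less transcript per cell cannot be told apart, here or in any result that follows.

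The gene model of fgf16 lies on scaffold 7 of assembly v7.1, from 5368309 to 5390579 on the plus strand, with 3 exons and 1086 exonic bases. No other gene model overlapped its exons. The organiser markers given above moved in the same direction as fgf16 in both treatments, and their part in its difference was not tested.

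fgf20, the other member of that subfamily with enough reads, stood at 37.7 ± 9.98 CPM (SD, n = 5) in untreated, 39.7 ± 11.01 CPM in UV-treated and 45.3 ± 15.1 CPM in LiCl-treated embryos. It did not pass any test, with log2 fold changes of 0.27 for LiCl-treated and 0.08 for UV-treated against untreated embryos and 0.19 between the treatments. Its interval for LiCl- against UV-treated embryos was -0.35 to 0.73.

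fgf3, which in Xenopus is transcribed around the blastopore and later in the tail bud and brain, was scarce and the most variable of the ligands. Untreated replicates 1 to 5 gave 1.38, 3.26, 2.15, 0.37 and 8.58 CPM, the UV-treated 0.48, 0.64, 0.64, 1.69 and 1.91 CPM, and the LiCl-treated 1.43, 1.46, 0.75, 0.48 and 2.21 CPM. The untreated libraries spanned the range of both treatments. For LiCl it differed by a log2 fold change of -1.30 with an interval of -2.71 to 0.12 (edgeR adjusted p = 0.229) and -1.55 with an interval of -2.97 to -0.12 for UV (edgeR adjusted p = 0.39), and neither passed. Without untreated replicate 5, the highest library, the log2 fold changes were -0.49 with LiCl and -0.73 with UV.

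Basic FGF (fgf2) and fgf12, an intracellular FGF-like protein that is not secreted, did not pass either. fgf2 was at 14.5 ± 4.76, 20.9 ± 9.22 and 21.9 ± 9.76 CPM in untreated, UV-treated and LiCl-treated embryos. The exons of fgf2 overlap those of nudt6 on the opposite strand, and the kit used does not mark strand, so the reads of the pair cannot be told apart where they overlap. fgf12 ranged from 10.9 to 19.9 CPM over all 15 libraries.

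The other 14 genes counted as ligands by symbol had too few reads to be tested. fgf6 and fgf23.2 had no read in any library. fgf4, which as eFGF maintains brachyury in Xenopus mesoderm, had counts of 1, 0, 0, 1 and 0 in untreated, 4, 0, 3, 1 and 2 in UV-treated and 5, 7, 0, 3 and 8 in LiCl-treated replicates 1 to 5. Its gene model held 579 exonic bases, of which 576 were coding, and so nearly no untranslated sequence. A count of 3, taken as the floor of detection, corresponded to between 0.158 and 0.336 CPM per library. fgf22 had the highest counts of the 14, up to 25, with between 0.55 and 1.57 CPM in LiCl-treated libraries, against at most 0.43 CPM in UV-treated and 0.58 CPM in untreated libraries.

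All 5 genes named as receptors were tested. fgfr1, fgfr2, fgfr3 and fgfr4 are the receptor tyrosine kinases, and fgfrl1 is a related membrane protein that binds FGFs but lacks the kinase domain. Per kilobase of exon, fgfr2 (194 CPM), fgfr1 (148 CPM) and fgfr4 (109 CPM) were the 3 most abundant members in untreated embryos, and fgfr3 (2.07 CPM) and fgfrl1 (0.55 CPM) were scarce. In LiCl-treated embryos fgfr2 stood at 281 CPM per kilobase and fgfr4 at 71.4 CPM per kilobase.

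fgfr4 was the 1 receptor that was lower in LiCl-treated embryos. It stood at 448, 409, 496, 355 and 405 CPM in untreated replicates 1 to 5, at 292, 314, 494, 380 and 335 CPM in UV-treated embryos and at 283, 246, 329, 212 and 310 CPM in LiCl-treated embryos. All LiCl-treated libraries were below all untreated libraries, and the UV-treated libraries spread over both. fgfr4 had a log2 fold change of -0.61 ± 0.15 (SE), with a 95% interval of -0.94 to -0.29 (edgeR adjusted p = 0.015) for LiCl-treated against untreated embryos, less than 2-fold and thus not past the study's threshold. Between UV-treated and untreated embryos it was -0.22 (edgeR adjusted p = 0.653) and between LiCl- and UV-treated embryos -0.40 (edgeR adjusted p = 0.0944).

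Where the exons of fgfr4 (18 exons, 3862 exonic bases on scaffold 3 from 74878455 to 74891220) overlap an unnamed gene model on the opposite strand, Xetrov72040255, the reads cannot be assigned by strand. In each of the 5 replicate numbers the LiCl-treated library was below the untreated one, by between 0.39 and 0.74 on the log2(CPM + 0.5) scale.

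fgfrl1 showed the largest difference of the 43 genes between LiCl- and UV-treated embryos, at low counts. Its raw counts were 14, 20, 7, 5 and 19 in untreated replicates 1 to 5, 3, 5, 4, 6 and 4 in UV-treated embryos and 29, 21, 37, 7 and 57 in LiCl-treated embryos. In CPM these were 0.84, 1.30, 0.66, 0.26 and 1.38, then 0.21, 0.40, 0.21, 0.36 and 0.35, and then 2.95, 2.35, 2.32, 0.56 and 3.15. LiCl-treated and UV-treated libraries did not overlap, although LiCl-treated replicate 4 stood far below the other 4, and untreated replicate 4 was the lowest of its condition and lay among the UV-treated libraries.

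Between LiCl- and UV-treated embryos fgfrl1 rose by a log2 fold change of 2.87 ± 0.51 (SE), with a 95% interval of 1.79 to 3.95 (edgeR adjusted p = 0.00121). Against untreated embryos the log2 fold change was 1.35 with LiCl (95% interval 0.38 to 2.33, edgeR adjusted p = 0.0631) and -1.52 with UV (95% interval -2.61 to -0.43, edgeR adjusted p = 0.238). With replicate 4 left out of each condition, an alternative added after the data were seen, the difference between treatments was 3.21 and the decrease with UV reached an FDR under 5% (log2 fold change -1.85, edgeR adjusted p = 0.0227). The UV-treated libraries held between 3 and 6 reads each, at or just above the floor of 3, and with a filter that asked for at least 10 reads in at least 10 libraries fgfrl1 was not tested. The organiser markers moved in the direction of fgfrl1 in both treatments, and their part was not tested.

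fgfr3 was measured at 12.4, 9.97, 11.4, 11.7 and 9.16 CPM in untreated, 12.4, 8.74, 9.52, 7.38 and 5.12 CPM in UV-treated and 16.3, 17.8, 20.4, 9.59 and 14.6 CPM in LiCl-treated replicates 1 to 5. LiCl-treated replicate 4 again lay below its group and within the range of the other conditions. The log2 fold change was 0.86 ± 0.24 (SE) between LiCl- and UV-treated embryos (edgeR adjusted p = 0.0214), under the study's 2-fold threshold, and did not pass against untreated embryos in either treatment. The difference between treatments missed an FDR of 5% without LiCl-treated replicate 2 or 3 or without UV-treated replicate 4 or 5 (edgeR adjusted p = 0.0551, 0.0609, 0.0578 and 0.0537). It also missed that FDR with only the 10 libraries compared.

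fgfr1 and fgfr2 did not pass in any of the 3 comparisons of the fit over all 15 libraries. fgfr1 stood at 721 ± 146 CPM (SD, n = 5) in untreated, 697 ± 125 CPM in UV-treated and 920 ± 197 CPM in LiCl-treated embryos, with a log2 fold change of 0.35 and an interval of -0.01 to 0.72 for LiCl (edgeR adjusted p = 0.204). With the replicate block in the 10 LiCl-treated and untreated libraries fgfr1 was among the members at an FDR of at most 5%. fgfr2 stood at 858 ± 115, 1074 ± 344 and 1242 ± 442 CPM, with LiCl-treated replicate 4 at 549 CPM and the other 4 between 1135 and 1641 CPM. Without LiCl-treated replicate 4, fgfr1, fgfr2, fgfr3, fgfrl1 and dusp5 joined the members at an FDR of at most 5% for LiCl-treated against untreated embryos, whose number went from 5 to 10, while over all genes it went from 1889 to 2525.

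**Figure D3:**
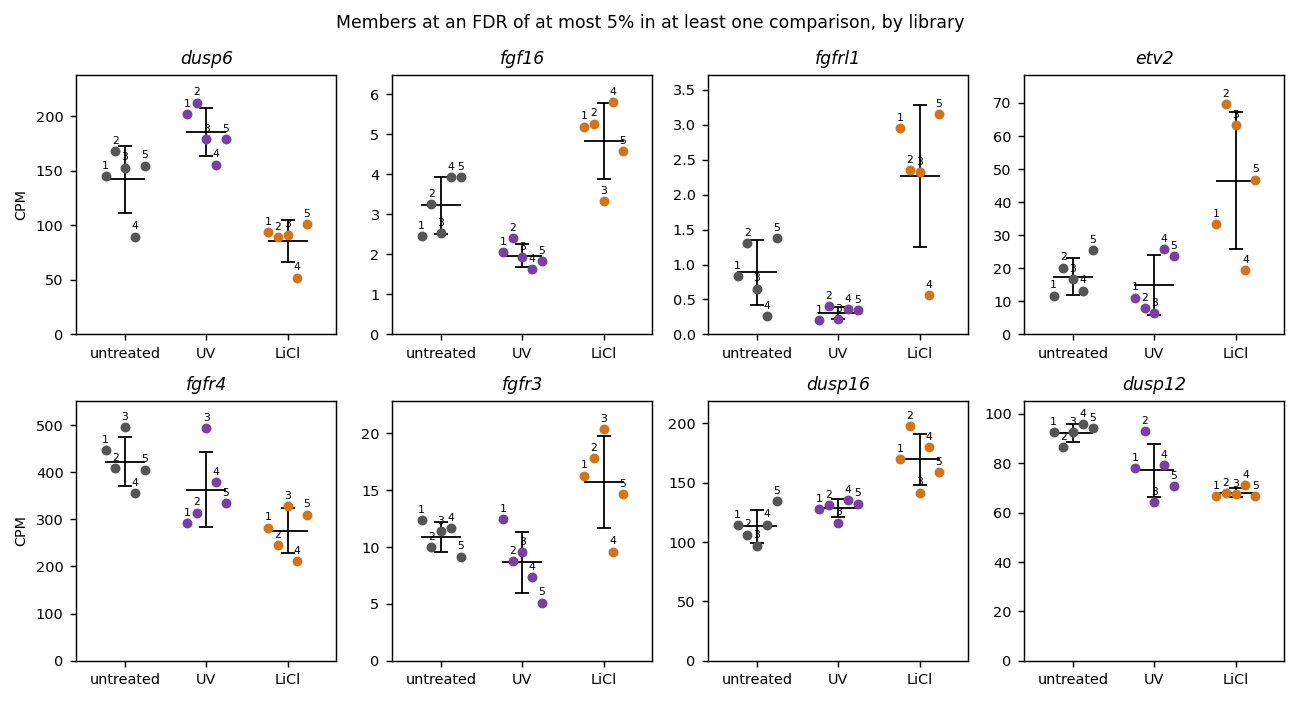
CPM of the 8 members that reached an FDR of at most 5% in at least 1 comparison (edgeR), each library as a point with its replicate number, with the mean (long line) and SD (bar) of the 5 libraries of a condition. All axes start at 0. LiCl-treated libraries lie apart from UV-treated libraries for dusp6, fgf16, fgfrl1 and dusp16, and LiCl-treated replicate 4 is the lowest of its 5 for dusp6, fgfrl1, etv2, fgfr4 and fgfr3.

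Of the dual-specificity phosphatases, 23 were in the table. Of these, 10 are classical MAP kinase phosphatases, which remove both phosphates from Erk, p38 or Jnk, and 7 of those were tested. The other 13 are atypical enzymes that carry the dusp name and most of which have no known tie to FGF signalling, and 11 of those were tested.

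dusp6, a cytoplasmic phosphatase selective for Erk and a feedback target of FGF signalling in vertebrate embryos, was the only member that fell past the threshold. It stood at 145, 168, 153, 89.7 and 155 CPM in untreated replicates 1 to 5, at 202, 212, 179, 156 and 179 CPM in UV-treated embryos and at 94.0, 89.2, 91.5, 52.0 and 101 CPM in LiCl-treated embryos. Every LiCl-treated library was below every UV-treated library. Untreated replicates 1, 2, 3 and 5 lay above all LiCl-treated libraries, and untreated replicate 4 lay among them.

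Between LiCl- and UV-treated embryos dusp6 fell by a log2 fold change of -1.12 ± 0.18 (SE), with a 95% interval of -1.51 to -0.72 (edgeR adjusted p = 0.00076). Against untreated embryos it was lower with LiCl, at a log2 fold change of -0.73 ± 0.18 (edgeR adjusted p = 0.016, 0.0572 without untreated replicate 2 and 0.0513 with only the 10 libraries compared), and 0.39 higher with UV, which did not pass (edgeR adjusted p = 0.435). Replicate 4 was the lowest library in all 3 conditions. Without LiCl-treated replicate 4 the difference between treatments was -0.99 (edgeR adjusted p = 0.000523), just under 2-fold, and without replicate 4 in any condition it was -1.03 (edgeR adjusted p = 3.46e-05).

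Compared within replicate numbers, dusp6 in LiCl-treated embryos was below untreated embryos in all 5, by 0.62, 0.91, 0.74, 0.78 and 0.61 on the log2(CPM + 0.5) scale. The pair with number 4 gave a difference inside the range of the other 4, although both of its libraries were low. The gene model of dusp6 lies on scaffold 3 from 83738091 to 83743107 on the minus strand, with 3 exons and 2648 exonic bases, and overlaps no other exon. The ventral markers given above moved in the direction of dusp6 in both treatments, and their part was not tested.

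dusp16, which acts on Jnk and p38 rather than Erk, went the other way. It was found at 114, 106, 96.9, 115 and 135 CPM in untreated, 128, 131, 116, 135 and 132 CPM in UV-treated and 170, 198, 142, 180 and 159 CPM in LiCl-treated replicates 1 to 5. All LiCl-treated libraries were above all libraries of both other conditions. dusp16 was higher by a log2 fold change of 0.58 ± 0.11 (SE; edgeR adjusted p = 0.00295) against untreated and 0.40 ± 0.11 (edgeR adjusted p = 0.0187) against UV-treated embryos, both well under 2-fold. The latter missed an FDR of 5% without LiCl-treated replicate 2 or without UV-treated replicate 3 (edgeR adjusted p = 0.0585 and 0.0524). It also missed that FDR when no filter on low counts was applied.

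The nuclear Erk phosphatase dusp5, the most abundant phosphatase per kilobase (99.4 CPM in untreated embryos), stood at 278 ± 72.6, 246 ± 16.1 and 365 ± 124 CPM in untreated, UV-treated and LiCl-treated embryos. The stress-inducible dusp1 stood at 144 ± 29.9, 134 ± 11.2 and 177 ± 34.8 CPM. Neither passed in any comparison, and between LiCl- and UV-treated embryos their log2 fold changes were 0.57 (interval 0.11 to 1.02) and 0.41 (interval 0.07 to 0.74). dusp5 and dusp1 were thus higher at the point estimate where dusp6, also an Erk phosphatase, was lower, in the same libraries.

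dusp4, a nuclear Erk phosphatase, stood apart in replicate 4 of 2 conditions. It gave 20.2, 19.9, 19.3, 42.8 and 22.9 CPM in untreated, 32.2, 22.7, 20.8, 28.7 and 23.96 CPM in UV-treated and 21.9, 31.3, 19.5, 64.5 and 28.8 CPM in LiCl-treated replicates 1 to 5. In untreated and in LiCl-treated embryos, replicate 4 was higher than all others, whereas for dusp6 it was lower. The remaining classical phosphatases tested, dusp8 and dusp9, did not pass.

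Among the 11 atypical phosphatases tested, dusp12 reached an FDR under 5% in 1 comparison. It stood at 92.7, 86.5, 92.6, 95.8 and 94.2 CPM in untreated, 78.2, 93.0, 64.2, 79.3 and 70.8 CPM in UV-treated and 66.6, 68.0, 67.7, 71.1 and 66.7 CPM in LiCl-treated replicates 1 to 5. All LiCl-treated libraries were below all untreated libraries, and the spread among LiCl-treated libraries was small. The log2 fold change was -0.44 ± 0.10 (SE; edgeR adjusted p = 0.00837). The other 10 did not pass in any comparison.

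Of the sprouty and spred genes, which encode intracellular inhibitors of receptor tyrosine kinase signalling to Erk, 7 were in the table and 5 were tested. None passed. spry2 was the most abundant, with 85.6 CPM per kilobase in untreated embryos, and spry1 had 44.1.

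spry2 stood at 256 ± 50.7 CPM (SD, n = 5) in untreated, 346 ± 57.0 CPM in UV-treated and 275 ± 87.9 CPM in LiCl-treated embryos. The log2 fold change for UV-treated against untreated embryos was 0.44, with an interval of 0.03 to 0.84 (edgeR adjusted p = 0.398). spry1 stood at 138 ± 42.1, 154 ± 10.2 and 132 ± 47.1 CPM, and its 95% interval for LiCl-treated against untreated embryos, -0.53 to 0.41, held no 2-fold change.

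spry4 was scarce, at 0.96, 0.52, 0.47, 1.16 and 1.45 CPM in untreated, 1.79, 2.00, 1.61, 3.33 and 3.21 CPM in UV-treated and 1.32, 2.58, 0.44, 0.81 and 1.77 CPM in LiCl-treated replicates 1 to 5. Every UV-treated library was above every untreated library, and LiCl-treated libraries overlapped both. The log2 fold change with UV was 1.37 ± 0.45 (SE), with an interval of 0.42 to 2.31, and did not pass over all genes (edgeR adjusted p = 0.223).

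spred2 was at 4.44, 5.73, 3.84, 6.04 and 6.10 CPM in untreated, 9.62, 7.54, 8.67, 6.29 and 8.68 CPM in UV-treated and 11.4, 7.51, 6.65, 6.93 and 6.52 CPM in LiCl-treated replicates 1 to 5. Both treated conditions lay above the untreated libraries without overlap. The log2 fold change was 0.57 with LiCl (edgeR adjusted p = 0.0869) and 0.64 with UV (edgeR adjusted p = 0.227), and both comparisons rest on the same untreated libraries. spred1 stood at 24.3 ± 13.3, 18.2 ± 3.47 and 14.9 ± 8.33 CPM and ranged in untreated embryos from 9.56 CPM in replicate 4 to 45.9 CPM in replicate 5.

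Libraries that do not overlap were counted over all genes as well. Between UV-treated and untreated embryos 3 of the 43 members tested (fgf16, spred2 and spry4) did not overlap, a larger share than the 3.22% of all genes. That share rests on 3 genes, none at an FDR of at most 5% there (edgeR), and was not tested. The gaps were narrow. The nearest UV-treated and untreated libraries were at 2.40 and 2.46 CPM for fgf16, 6.29 and 6.10 for spred2, and 1.61 and 1.45 for spry4. Between LiCl-treated and untreated embryos 4 of 43 did not (dusp12, dusp16, fgfr4 and spred2), near the 8.36% of all genes. Between LiCl- and UV-treated embryos 4 of 43 did not (dusp6, dusp16, fgf16 and fgfrl1), below the 12.4% of all genes.

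Among transcription factors, 6 etv genes were in the table and 5 were tested. etv1, a member of the Pea3 group that FGF signalling switches on in vertebrate embryos, stood at much the same level in all conditions. It was found at 287 ± 28.3 CPM (SD, n = 5) in untreated, 294 ± 15.9 CPM in UV-treated and 296 ± 30.7 CPM in LiCl-treated embryos. Its 95% intervals were -0.15 to 0.24 for LiCl-treated against untreated, -0.16 to 0.23 for UV-treated against untreated and -0.18 to 0.20 between treatments on the log2 scale.

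etv4, another Pea3 factor, had too few reads to be tested. Its counts were 3, 13, 9, 0 and 16 in untreated, 0, 3, 4, 4 and 2 in UV-treated and 0, 2, 0, 1 and 1 in LiCl-treated replicates 1 to 5. Its gene model held 675 exonic bases, of which 672 were coding, and so almost no untranslated sequence. No LiCl-treated library had more than 2 reads of it, while untreated replicates 2, 3 and 5 had 9 or more and untreated replicate 4 had 0.

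etv2, known as a regulator of blood and vessel progenitors rather than as a target of FGF, was the etv factor that differed. It gave 11.8, 20.2, 16.8, 13.2 and 25.6 CPM in untreated, 11.1, 8.02, 6.37, 25.9 and 23.7 CPM in UV-treated and 33.4, 69.6, 63.3, 19.4 and 46.9 CPM in LiCl-treated replicates 1 to 5. LiCl-treated replicates 1, 2, 3 and 5 stood above every other library, and replicate 4 lay among the untreated ones. The UV-treated libraries fell into a lower group (replicates 1, 2 and 3) and a higher one (replicates 4 and 5).

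The log2 fold change of etv2 was 1.41 ± 0.42 (SE; edgeR adjusted p = 0.0344) with LiCl against untreated embryos and 1.63 ± 0.42 (edgeR adjusted p = 0.0145) against UV-treated embryos, over 2-fold at an FDR over 1%. When the replicate number entered the model as a block for the 10 libraries compared, where numbers were taken to pair LiCl-treated with untreated libraries, etv2 passed the threshold (log2 fold change 1.33, edgeR adjusted p = 0.00216). Without LiCl-treated replicate 4 it also passed between LiCl- and UV-treated embryos (1.82, edgeR adjusted p = 0.00466). DESeq2 over all 15 libraries called etv2 for LiCl-treated embryos against both untreated and UV-treated embryos. Against untreated embryos etv2 missed an FDR of 5% when LiCl-treated replicate 2, 3 or 5 or untreated replicate 1, 2, 3 or 4 was left out, with log2 fold changes of 1.22 to 1.49 and edgeR adjusted p of 0.0523 to 0.0975. It also missed it there when no filter on low counts was applied.

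etv3 and etv6, which act as repressors, and etv3l did not pass. il17rd, a membrane inhibitor of FGF signalling also known as Sef, stood at 142 ± 33.3, 157 ± 14.7 and 145 ± 15.1 CPM in untreated, UV-treated and LiCl-treated embryos, with log2 fold changes between -0.11 and 0.15 over the 3 comparisons. egr1, an immediate early gene that responds to Erk, was low and uneven. It ranged from 2.78 to 9.66 CPM in untreated, from 5.87 to 16.9 CPM in UV-treated and from 1.29 to 15.6 CPM in LiCl-treated libraries, with no test passed.

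The symbols fgfr1op and fgfr1op2 start like those of receptors, but the proteins are named after a gene fusion with fgfr1 and are no receptors, the first being a centrosomal protein. Neither passed a test, so the genes past the threshold were 3 of the 41 tested without them as well. fgfr1op was at 36.1, 31.2, 37.8, 55.0 and 34.6 CPM in untreated and at 31.0, 30.9, 27.5, 56.2 and 31.2 CPM in LiCl-treated replicates 1 to 5, with replicate 4 the highest in both.

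Replicate 4 thus stood apart for many members. In LiCl-treated embryos, replicate 4 was the lowest library for 22 and the highest for 14 of the 43 genes, 83.7% in all, where it was an extreme for 67.5% of all genes tested. Untreated replicate 4 was an extreme for 67.4% of members and 63.4% of all genes, and untreated replicate 5 for 60.5% and 56.3%. Among the genes lowest in both were dusp6, dusp8, spred1, egr1 and fgfrl1, and among those highest in both were dusp4, dusp22, etv3 and fgfr1op. The median coefficient of variation of the members was 26.5% in untreated, 18% in UV-treated and 34% in LiCl-treated embryos, against 29.2%, 20.8% and 30.7% over all genes.

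**Figure D4:**
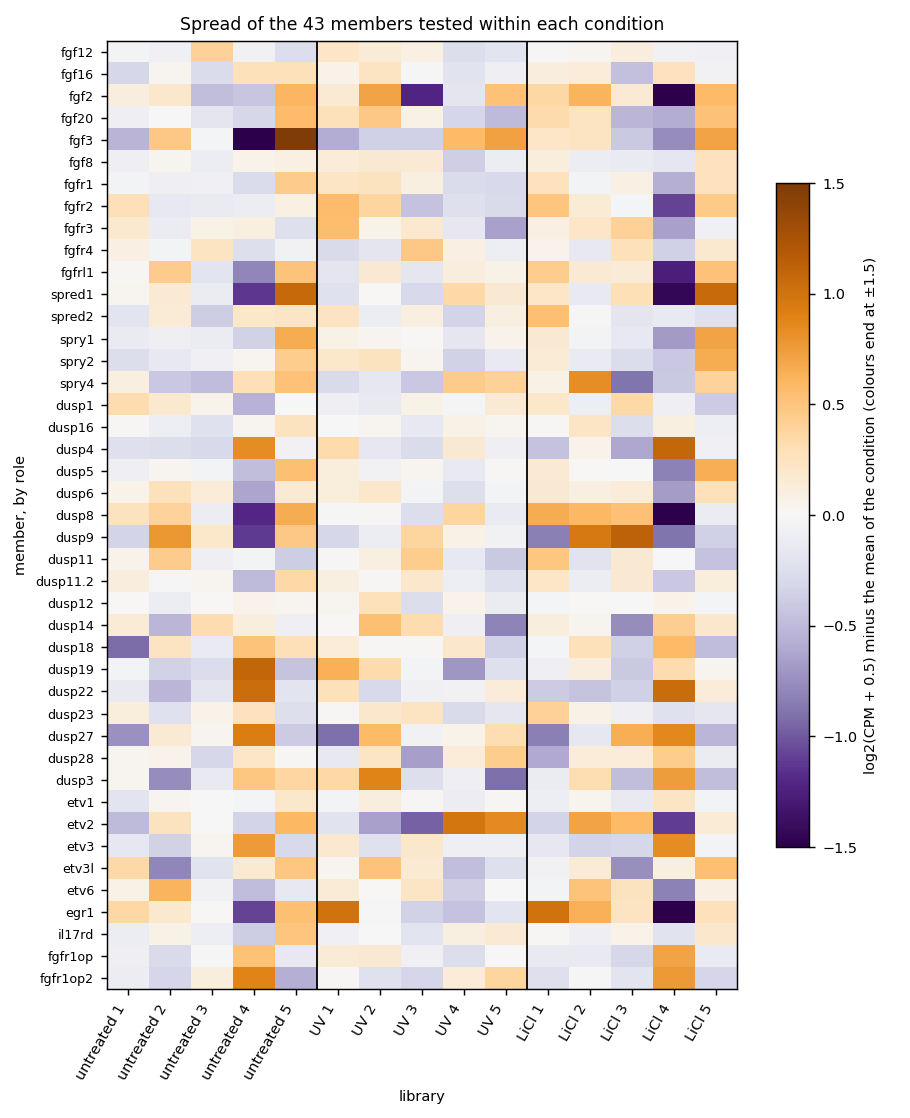
Deviation of each library from the mean of its own condition, on the log2(CPM + 0.5) scale, for the 43 genes tested, with colours ending at 1.5 in both directions. Rows are genes in the order of their roles and columns are libraries, with black lines between conditions. LiCl-treated replicate 4 and untreated replicate 4 share a pattern, low for dusp6, dusp8, spred1 and egr1 and high for dusp4, dusp22 and etv3.

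With replicate 4 left out of all 3 conditions, 5 members passed the threshold between LiCl- and UV-treated embryos. They were dusp6, fgf16 and fgfrl1 together with etv2 and dusp8, and over all genes the number past the threshold went from 857 to 1057. None passed in the other comparisons. At an FDR of at most 5% the members numbered 8 for LiCl-treated against untreated, 3 for UV-treated against untreated and 11 for LiCl- against UV-treated embryos, where 2570, 371 and 2901 of all genes did.

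Because LiCl-treated and untreated libraries of the same number deviated together, each member was also compared within numbers. Of the 43 genes, 14 differed in the same direction in all 5 numbers, 10 higher and 4 lower in LiCl-treated embryos, which is 32.6%, against 33.8% of all genes. By direction, 23.3% of members were higher and 9.3% lower in all 5, against 16.5% and 17.3% of all genes. The 4 that were lower in LiCl-treated embryos in every number were dusp6, dusp12, fgfr4 and spred1. Among the 10 that were higher in every number were fgf8, fgf16, fgfr1, fgfrl1, dusp4, dusp5, dusp16, etv2 and spred2. For fgf8 the 5 differences ran from 0.01 to 0.43 on the log2(CPM + 0.5) scale, and for fgf16 from 0.20 to 0.94. With the replicate block in these 10 libraries, 9 members reached an FDR of at most 5% in place of 5 (edgeR), with dusp5, fgfr1, fgfrl1 and spred1 added to dusp6, dusp12, dusp16, etv2 and fgfr4. Over all genes the number went from 1889 to 3470 under that block.

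Other genes of the pathway were taken as 3 lists. Of 26 genes for heparan sulphate, co-receptors and other cofactors in the table, 19 were tested. The heparan sulphate proteoglycan gpc4 rose in LiCl-treated against untreated embryos (22.4 ± 6.81 to 48.6 ± 11.1 CPM, log2 fold change 1.12, edgeR adjusted p = 0.00857). The co-receptor nrp1 rose in LiCl- against UV-treated embryos (log2 fold change 1.68, edgeR adjusted p = 0.00974). The other 18 in each of these comparisons, and all 19 for UV-treated against untreated embryos, did not pass.

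Of 30 genes of the cascade from receptor adaptors to Erk and its targets, 27 were tested and 2 passed, both between LiCl- and UV-treated embryos. In that comparison 6.1% of all genes passed. lrig3, a membrane protein that in Xenopus dampens FGF signalling, was at 670 ± 143 CPM in untreated, 344 ± 137 CPM in UV-treated and 1226 ± 251 CPM in LiCl-treated embryos, a log2 fold change of 1.83 between treatments (edgeR adjusted p = 0.000176). rasal2, a Ras GTPase-activating protein, rose by 1.096 on the log2 scale (edgeR adjusted p = 0.000296). The median log2 fold change of the 27 genes was 0.08 for LiCl-treated against untreated and 0.06 for LiCl- against UV-treated embryos, near the medians over all genes.

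The third list held 11 mesodermal and posterior genes taken as dependent on FGF signalling in Xenopus. All were tested, and those that passed were lower in LiCl-treated embryos. Against untreated embryos 5 of 11 fell past the threshold (cdx1, cdx4, mespb, msgn1 and wnt8a), with a median log2 fold change of -1.79 over the 11, and 6 did not pass. Of all genes 1.42% fell past it there. Against UV-treated embryos 7 of 11 fell (cdx1, cdx2, cdx4, mespb, msgn1, t and wnt8a), with a median of -2.20, where 2.55% of all genes fell. Between UV-treated and untreated embryos none passed, and the median was 0.30. The comparisons share libraries, and wnt8a is at once a ventral marker, so the lists are not independent. The study counts wnt8a, mespb and msgn1 among its ventro-posterior markers. It also names mespa, cdx4 and t, with msgn1, among genes higher in UV-treated embryos of the same data. The list was drawn up with such results known. Its shares beside those of all genes therefore cannot be read as a result about FGF-dependent genes. The part of the loss of ventral and posterior tissue in these decreases was not tested.

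Within this last list, msgn1, a regulator of presomitic mesoderm, fell from 135 ± 62.2 CPM in untreated to 7.84 ± 9.11 CPM in LiCl-treated embryos (log2 fold change -4.08, edgeR adjusted p = 0.0014). The posterior homeobox gene cdx4 fell from 418 ± 173 to 108 ± 54.6 CPM (-1.95, edgeR adjusted p = 0.00332). brachyury (t), at 747 ± 73.8 CPM in untreated and 471 ± 52.5 CPM in LiCl-treated embryos, was lower by less than 2-fold (-0.66, edgeR adjusted p = 0.000976). In the same LiCl-treated libraries fgf8 was 0.25 higher (edgeR adjusted p = 0.182) and dusp6 0.73 lower on the log2 scale than in untreated embryos. Of the other feedback genes and targets tested, spred1 (-0.70) and spry1 (-0.06) were lower at the point estimate. Higher there were il17rd (0.03), etv1 (0.04), spry2 (0.10), egr1 (0.43), spry4 (0.57) and spred2 (0.57). The phosphatases dusp1 (0.30), dusp4 (0.40) and dusp5 (0.39) were higher at the point estimate as well. None of these feedback genes, targets and phosphatases, nor fgf8 or dusp6, passed the study's threshold in this comparison.

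**Figure D5:**
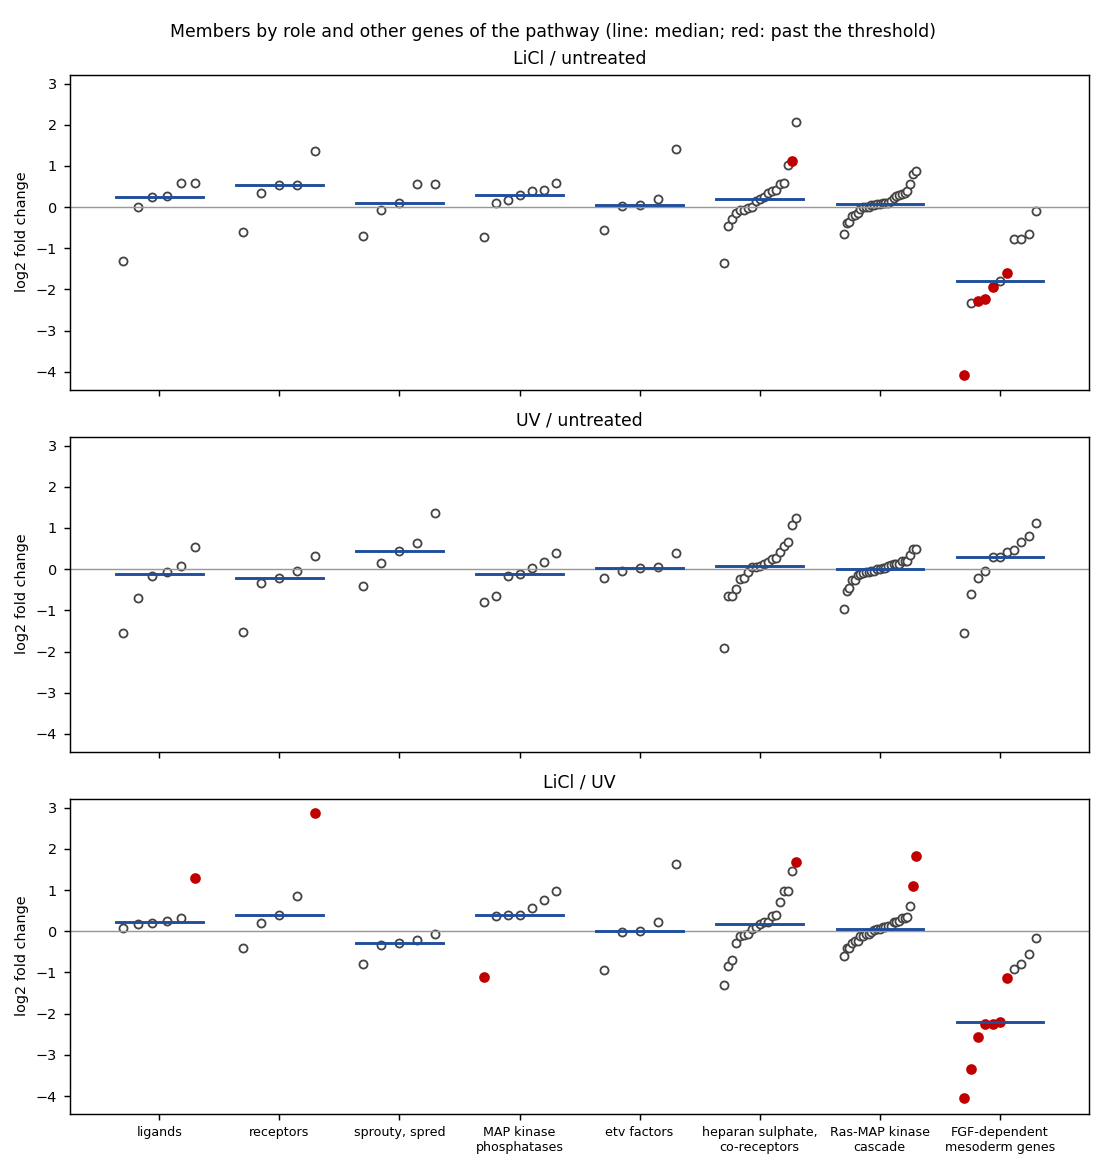
Log2 fold change of the genes tested, by role for the members and by list for other genes of the pathway, in the 3 comparisons. The atypical dusp genes, il17rd, egr1, fgfr1op and fgfr1op2 are not drawn. Each point is a gene, blue lines are medians, and red points passed the study's threshold (edgeR). The genes listed as FGF-dependent mesoderm genes have medians of -1.79, 0.30 and -2.20, while the other groups lie nearer 0.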

How the data were processed

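Total RNA was taken from 10 embryos per library, poly(A) libraries were made with a TruSeq kit that does not mark strand, and the authors mapped the reads with TopHat2 (no junctions beyond the gene models were sought) and obtained gene counts with HTSeq-count (mode intersection-nonempty). The submitters' processing notes name CASAVA 1.8.2, TopHat2 2.1.1 and 2.0.10, HTSeq and DESeq2. The strand setting of the counting is not given in the sources used here. The deposited values are raw whole-number counts for 28206 genes in 15 libraries. Other values such as gene positions come from the deposited gene models v7.2 on assembly v7.1.

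Tests were run with edgeR 4.0.16 under R 4.3.3 (filterByExpr by condition, TMM, robust glmQLFit and glmQLFTest, 1 fit over all 15 libraries without covariates, Benjamini-Hochberg adjustment over the 14041 genes tested). The threshold was the study's, at least 2-fold with an FDR no higher than 1%, which the study applied to DESeq2 results. CPM use TMM-scaled library sizes, and the mean ± SD is over 5 libraries. SEs were derived from the F statistic. P-values measure the spread between these libraries. Levels between genes were compared per kilobase of exon.

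Samples were grouped by the deposited descriptions, and every column of the count table was used. Members were chosen by symbol, and members and lists were chosen with earlier results of these data known. Named were all members past the threshold and a set list of ligands, receptors, sprouty, spred, dusp and etv genes, il17rd and egr1, genes of the pathway lists past the threshold, and the markers. fgf2, fgf12, fgf22, dusp8, dusp9, dusp12, dusp16, dusp22, etv2, etv3, etv6 and others outside that rule were named after their values were seen.

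Whether replicate numbers pair the libraries was checked by correlating deviations from the condition means. LiCl-treated and untreated libraries of the same number correlated at 0.338 to 0.731, all 5 over the limit of 0.1, and were taken as paired by the data, since the labels do not state it. UV-treated and untreated libraries gave -0.254 to 0.543 and LiCl- and UV-treated libraries -0.12 to 0.386, with 4 of 5 over the limit. The closest untreated library bore another number for LiCl-treated replicate 3, and the closest UV-treated library did for LiCl-treated replicate 4. For UV-treated replicates 1 and 4 the closest untreated library bore another number as well. No 2 libraries of a condition agreed within sampling noise, although UV-treated replicates 4 and 5 were the most alike (chi-square per gene 4.34, next pair 13.0). The scripts were tested on simulated data. Alternatives were DESeq2 1.42.0, its size factors in edgeR, no filter and a stricter filter on low counts, an FDR of at most 5%, only the 10 libraries compared, the replicate block, and each replicate left out.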

Additional observations from a re-analysis of the deposited data

Results flagged for a closer look

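In 9 of 78 groups of 5 libraries (26 named members in 3 conditions) a single library lay far from the other 4, by the gap to its neighbour divided by the range. For independent groups of normally distributed values, chance gives such a library in about 1 in 20 groups. CPM need not be so distributed, and these groups share libraries, so the number flagged cannot be set against that rate. Untreated replicate 5 was the highest for 3 genes, at 54.9 CPM for fgf20 (others up to 36.8), 971 CPM for fgfr1 (others up to 691) and 212 CPM for spry1 (others up to 127). Replicate 4 was the highest for dusp4, at 42.8 CPM in untreated (others up to 22.9) and 64.5 CPM in LiCl-treated embryos (others up to 31.3), and the lowest for dusp6 in LiCl-treated embryos, at 52.0 CPM (others from 89.2). UV-treated replicate 1 was the highest for egr1, at 16.9 CPM (others up to 8.10), and the lowest for etv4, at 0 CPM (others from 0.174), which is 0 reads against 2 to 4 and so within counting error at the floor of 3. LiCl-treated replicate 1 was the highest for spred2, at 11.4 CPM (others up to 7.51).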

How the results depend on the processing

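Of 1649 alternative values for 72 log2 fold changes of named members, 1603 kept their direction and their side of the threshold, 2 no longer passed, 5 newly passed and 39 changed sign. The sign changes concerned 15 fold changes, and none of these genes passed the threshold in any alternative run.

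For LiCl-treated against untreated embryos the number of members past the threshold went from 0 to 5 when the FDR limit was raised to 5% and the fold limit dropped together, and to 1 (etv2) with DESeq2. For LiCl- against UV-treated embryos it went from 3 to 6 under the same double change, to 4 with DESeq2 (etv2 added), and to 5 without replicate 4 in each condition. Leaving out 1 library at a time gave 3 members each time, and dusp6 gave way to etv2 without LiCl-treated replicate 4. With the replicate block in the 10 libraries compared, 1 member passed for LiCl-treated against untreated embryos (etv2) and 1 for LiCl- against UV-treated embryos (dusp6). For LiCl- against UV-treated embryos fgf16 then stood at 1.28 (edgeR adjusted p = 0.0139) and etv2 at 1.73 (edgeR adjusted p = 0.103), and fgfrl1 was not tested in the 10 libraries. Members at an FDR of at most 5% for LiCl-treated against untreated embryos numbered 9 with that block. The block over all 15 libraries left 0, 0 and 3 members past the threshold. Under the block egr1 between LiCl- and UV-treated embryos turned to -0.093 (15 libraries) and -0.076 (10 libraries). Without a filter on low counts etv1 in that comparison turned to -0.030, and fgf4 reached an FDR of at most 5% for LiCl-treated against untreated embryos. The cause was not tested.

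With 1 library left out at a time, the values that changed sign ran, between LiCl- and UV-treated embryos, from -0.022 to 0.51 for dusp4, -0.17 to 0.45 for egr1, -0.055 to 0.044 for etv1 and -0.080 to 0.53 for fgf3. Between UV-treated and untreated embryos they ran from -0.062 to 0.32 for dusp4, -0.018 to 0.50 for egr1, -0.013 to 0.086 for etv1, -0.054 to 0.25 for fgf20, -0.11 to 0.014 for fgf8 and -0.11 to 0.081 for fgfr1. Between LiCl-treated and untreated embryos they ran from -0.023 to 0.092 for etv1, -0.057 to 0.17 for il17rd, -0.28 to 0.14 for spry1 and -0.10 to 0.23 for spry2. Without replicate 4 in each condition, etv1 was at -0.021 (LiCl against untreated) and -0.070 (LiCl against UV), fgf8 at 0.029 (UV against untreated), spred1 at 0.056 (LiCl against UV) and spry1 at 0.0018 (LiCl against untreated).

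Low counts left 22 members untested, of which 5 had no read and 10 never more than 3. The models of fgf4 and etv4 hold almost no untranslated sequence, and whether this bears on their counts was not tested. Members at an FDR of at most 5% ran from 3 to 10 for LiCl-treated against untreated and from 4 to 11 for LiCl- against UV-treated embryos as single libraries were left out, the highest of both without LiCl-treated replicate 4. Over all genes the numbers moved as well, from 1174 to 2525 and from 1546 to 2825.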
